A study of Mus musculus with 2 samples.

Results

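The 8 genes described here encode core and accessory subunits of the Polycomb complexes: Ezh2, Ezh1, Suz12, Eed and Jarid2 of Polycomb repressive complex 2 (PRC2), and Rnf2, Ring1 and Cbx7 of Polycomb repressive complex 1 (PRC1). They were chosen by name, not by any measured value, from 22350 protein-coding genes on chromosomes 1 to 19 and X of the GENCODE vM1 annotation. Earlier results of these data were known when they were chosen. For each gene, every ATAC-seq peak whose middle lay in the gene model or within 20 kb of it was taken from the peak list of each genotype, which gave 69 of 71914 WT peaks and 60 of 61640 Uhrf1 KO peaks. ATAC-seq marks open chromatin by the sites where the Tn5 transposase can insert sequencing adapters into the DNA of nuclei. The libraries came from undifferentiated mouse embryonic stem cells (ESCs), 1 from WT cells and 1 from Uhrf1 KO cells, each made from 50000 lysed cells. The authors name E14 cells and Uhrf1 KO ESCs without stating the parent of the KO line. Both lines were grown with serum and leukemia inhibitory factor on plates coated with gelatin or with mouse embryonic fibroblasts. Uhrf1, the gene deleted in the KO line, encodes a nuclear protein that binds hemimethylated DNA and is needed to maintain DNA methylation. With 1 library and 1 KO line, a difference between the lists cannot be told apart from a difference between 2 libraries or 2 cell lines, and no test between genotypes was made.

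PRC2 places methyl groups on lysine 27 of histone H3 through Ezh2 or its paralog Ezh1, and needs the subunits Suz12 and Eed to do so. PRC1 attaches ubiquitin to histone H2A through the paired RING proteins Rnf2 (Ring1B) and Ring1 (Ring1A), and Cbx proteins such as Cbx7 dock it on the mark left by PRC2. In ESCs both complexes hold genes of later development in a repressed but responsive state, often at promoters that also carry the active mark on lysine 4 of histone H3.

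Sequences of peaks at the starts of these genes show what kind of DNA was open there. The lines give, 5′ to 3′ on the strand of the gene and in build mm9, the part of a WT peak at a transcription start site (TSS) that lies outside untranslated regions, for the 7 genes where a partnered WT peak left at least 60 bases. They are not always the peaks closest to a start, since many of those lie in untranslated regions. The Jarid2 stretch is at −167 bp from the nearest own start, inside an intron of longer transcripts, and the Cbx7 stretch is intronic, 149 bp downstream of its nearest own start. Each has a KO peak beside it, and capitals mark GGGCGG or its reverse complement, the GC box bound by Sp and Klf factors.
Ezh2, chr6:47545341-47545428, minus strand: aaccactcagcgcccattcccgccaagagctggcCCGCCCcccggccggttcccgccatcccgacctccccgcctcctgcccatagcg
Ezh1, chr11:101087778-101087859, minus strand: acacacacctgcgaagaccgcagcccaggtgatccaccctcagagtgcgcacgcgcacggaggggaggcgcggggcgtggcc
Suz12, chr11:79806488-79806588, plus strand: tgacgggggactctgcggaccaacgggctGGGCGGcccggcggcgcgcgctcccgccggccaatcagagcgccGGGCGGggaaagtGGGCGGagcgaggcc
Eed, chr7:97129752-97129852, minus strand: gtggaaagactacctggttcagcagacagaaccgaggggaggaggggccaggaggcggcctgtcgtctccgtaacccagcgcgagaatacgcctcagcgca
Jarid2, chr13:44825926-44826026, plus strand: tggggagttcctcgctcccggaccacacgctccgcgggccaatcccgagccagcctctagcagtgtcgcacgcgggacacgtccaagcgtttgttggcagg
Rnf2, chr1:153348047-153348147, minus strand: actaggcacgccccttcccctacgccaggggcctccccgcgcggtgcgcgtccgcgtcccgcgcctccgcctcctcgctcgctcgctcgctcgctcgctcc
Cbx7, chr15:79762771-79762871, minus strand: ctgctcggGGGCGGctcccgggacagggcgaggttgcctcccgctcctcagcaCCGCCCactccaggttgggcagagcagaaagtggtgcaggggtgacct
The Suz12 stretch held 3 GC boxes and 16 CpGs, the Cbx7 stretch 2 GC boxes and the Ezh2 stretch 1. The Rnf2 stretch held 18 CpGs and no GC box in these letters. The GC box occurred in 25.9% of all WT peaks and in 23.3% of all KO peaks. Among all peaks within 2 kb of a protein-coding TSS, the like set for these stretches, the shares were 40% and 40.9%.

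Peaks further from the starts differed more in sequence. Of the 4 lines here, the first is from a Jarid2 intron and is shown because its WT and KO peaks had identical coordinates, with TGACGTCA, the cyclic AMP response element, in capitals. The next is from deeper in Jarid2 and the one after it from upstream of Eed, shown because parts of them recur elsewhere in the genome. The last lies upstream of Rnf2 and contains no CpG.
Jarid2 at 4429 bp, chr13:44829283-44829383, plus strand: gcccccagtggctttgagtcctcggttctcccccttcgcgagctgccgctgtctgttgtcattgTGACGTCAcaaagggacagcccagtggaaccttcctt
Jarid2 at 140365 bp, chr13:44965219-44965319, plus strand: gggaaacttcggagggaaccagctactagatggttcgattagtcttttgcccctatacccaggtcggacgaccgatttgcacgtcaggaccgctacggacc
Eed at −5826 bp, chr7:97135269-97135369, minus strand: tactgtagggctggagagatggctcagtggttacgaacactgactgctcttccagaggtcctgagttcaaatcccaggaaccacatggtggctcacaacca
Rnf2 at −15062 bp, chr1:153362965-153363065, minus strand: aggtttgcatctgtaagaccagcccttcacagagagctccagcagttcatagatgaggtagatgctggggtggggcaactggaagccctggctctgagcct
TGACGTCA was present in 0.661% of all WT peaks and in 0.673% of all KO peaks. Distances are in bp from the reference TSS of each gene, the start of a protein-coding transcript, and are negative upstream of it. The reference is the start with the most peaks of both lists within 2 kb, and the most upstream where starts tie.

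Both lists carry the score 1 for every peak, and all member peaks have the same width, so neither strength nor width separates them and the reads behind a peak are unknown. A missing peak therefore does not show closed chromatin. The Uhrf1 gene had 12 WT and 10 KO peaks, of which 2 and 3 lay at its TSSs. The part of Uhrf1 that was deleted is not given in the sources used here, so these peaks do not check the genotype. Of 8 pluripotency genes, 8 had a TSS peak in WT and 7 in KO, the exception being Dppa4. Of 8 fibroblast genes, 5 and 4 had one, and Lum, Col3a1 and Twist2 had none in either list. The part of fibroblasts from the plate coating in the results was not tested.

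All 8 Polycomb genes had a peak within 2 kb of an own TSS in both lists, against 56.2% of all protein-coding genes. Own TSS here means the start of a protein-coding transcript of the gene. The WT list held 35 such peaks and the KO list 31, a KO to WT ratio of 0.886 (95% exact interval 0.528 to 1.48, counting error only). Over the whole windows the ratio was 0.87 (0.605 to 1.25), beside 0.857 for all peaks of the lists. The interval of 45.79 to 77.23 around the 60 KO peaks and that of 53.69 to 87.32 around the 69 WT peaks (exact Poisson, counting error only) overlapped. All intervals given here treat each peak as independent. Many of the peaks lay beside a peak of the other list or of the same list, so they are not. The plot of peak positions around the starts shows these peaks gene by gene.

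**Figure D1:**
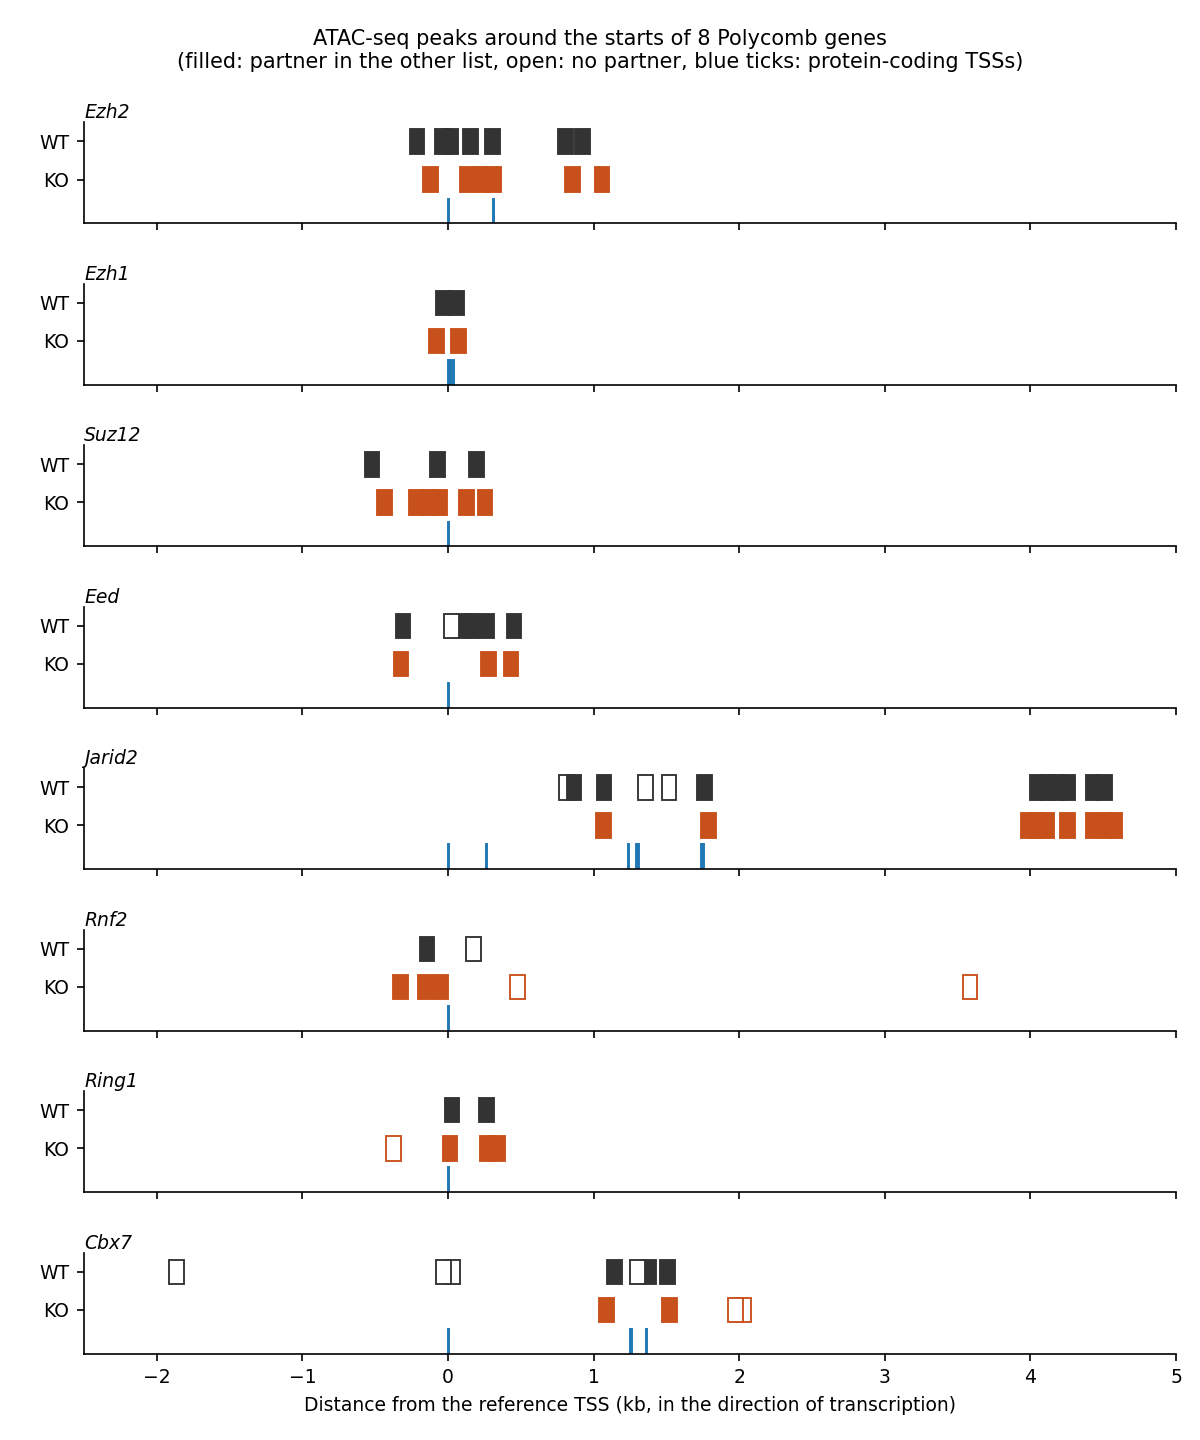
ATAC-seq peaks around the reference TSS of the 8 genes, drawn to scale as boxes, with distance in kb in the direction of transcription and 1 library in each row. Filled boxes have a partner in the other list within 100 bp and open boxes do not, and ticks mark starts of protein-coding transcripts. Every gene has peaks at a start in both rows, and Jarid2 has a further cluster of 6 WT and 7 KO peaks.

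Peaks of the 2 lists were called partners where the gap between them was at most 100 bp. Of the 69 WT peaks, 21 had no KO partner (30.4%, exact Clopper-Pearson interval 19.92 to 42.69%), beside 32.1% of all WT peaks. Of the 60 KO peaks, 8 had no WT partner (13.3%, 5.936 to 24.59%), beside 24.6% of all KO peaks. The WT interval held the share over all WT peaks, and the KO interval ended just under the share over all KO peaks. The unmatched WT peaks were 9 at own TSSs, 7 at TSSs of neighbouring genes and 5 elsewhere, and the unmatched KO peaks were 4 at own TSSs and 4 elsewhere. At own TSSs this was 25.7% of WT and 12.9% of KO peaks (3.63 to 29.83% in KO), beside 25.1% and 8.29% of all peaks within 2 kb of a protein-coding TSS. Among distal peaks it was 23.8% of WT and 16.7% of KO peaks (8.218 to 47.17% and 4.735 to 37.38%), beside 38.7% and 37.2% of all peaks further away. Each of these intervals held the share over all peaks of its kind. At TSSs of neighbouring genes it was 53.8% of 13 WT peaks (25.13 to 80.78%) and 0% of 5 KO peaks (0 to 52.18%). The 25.1% and 8.29% of all TSS peaks apply here too, and the WT interval began at about that share. Partners lay a median of 18 bp apart at these genes (n = 48 WT peaks) and 19 bp apart in the whole lists.

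Gene by gene, fewer KO than WT peaks were listed in 6 windows (Ezh2, Ezh1, Eed, Jarid2, Ring1 and Cbx7) and more in 2 (Suz12 and Rnf2). Of all protein-coding genes, 48.7% had fewer KO than WT peaks, and of those with at least 10 peaks 64.3%. The direction turned at Ezh2 and Suz12 when neighbouring peaks were merged, at Ring1 in the gene model alone, and at Cbx7 when the WT list was shortened to the length of the KO list. Of the 7 genes with at least 10 peaks in both lists together, Eed and Ring1 had a KO number lower by at least 1.5 times, which 33.6% of all such genes had. Rnf2 alone had a KO number higher by at least 1.5 times, beside 6.35% of all such genes. The median of log2((KO peaks + 1)/(WT peaks + 1)) was −0.25 over the 8 members and −0.24 over the 8035 genes with at least 10 peaks. Counting only peaks within 2 kb of own TSSs, in the 7 genes with at least 5 of them, the KO number was lower by 1.5 times at Eed, Jarid2 and Cbx7, beside 45.8% of all such genes. It was higher by 1.5 times at Suz12, Rnf2 and Ring1, beside 15.7%. These are shares of small whole numbers from 1 library each.

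**Figure D2:**
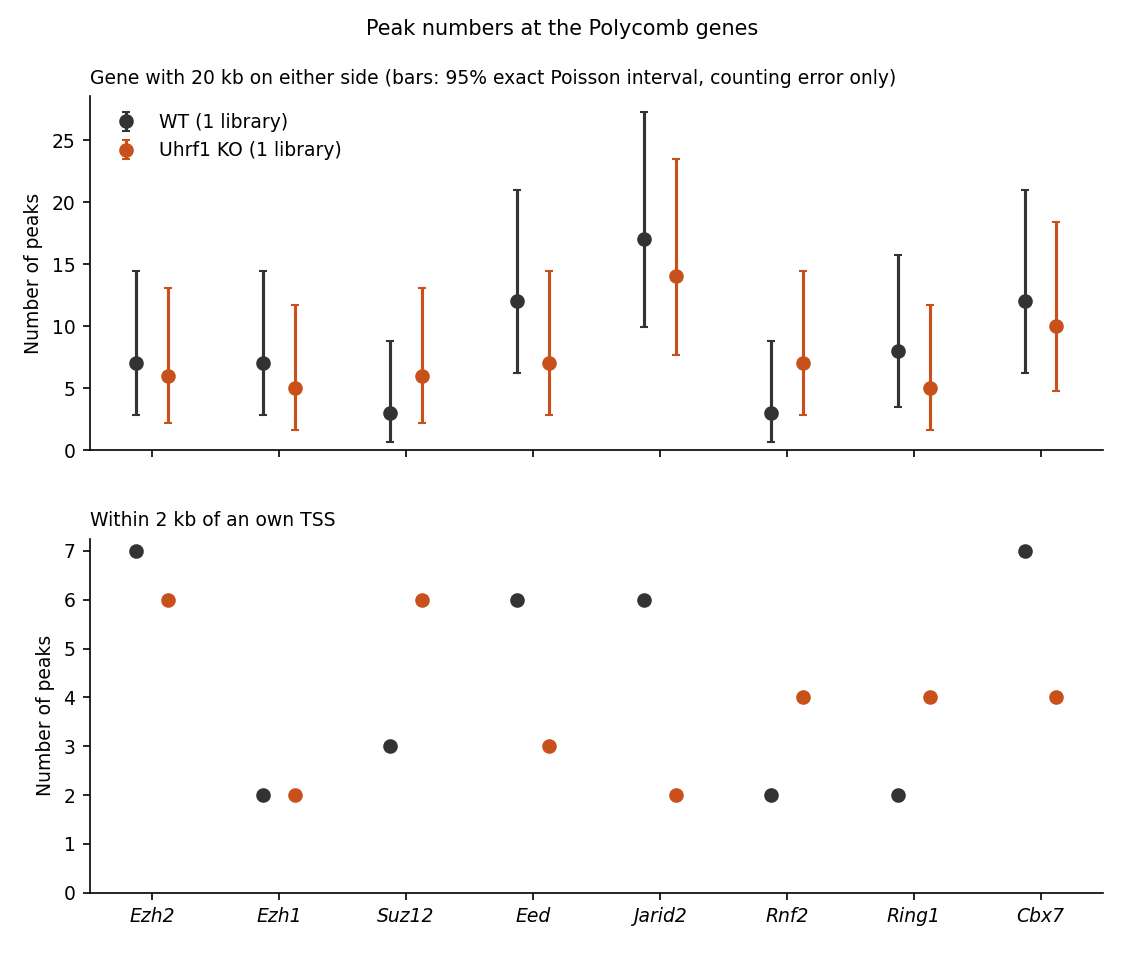
Number of peaks in each gene with 20 kb on either side (top, with 95% exact Poisson intervals that cover counting error only) and within 2 kb of an own TSS (bottom), in the WT and the Uhrf1 KO library. In the top panel the WT and KO intervals overlap for every gene; Suz12 and Rnf2 have 3 WT peaks each and 6 and 7 KO peaks.

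**Figure D3:**
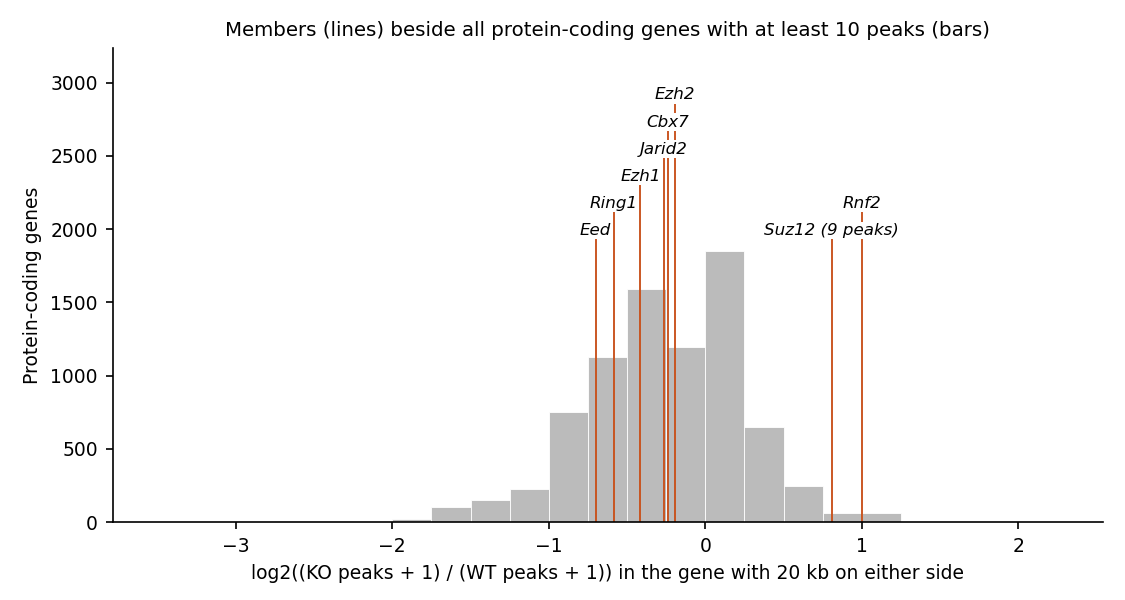
Log2((KO peaks + 1)/(WT peaks + 1)) in the gene with 20 kb on either side, as a histogram of the 8035 protein-coding genes with at least 10 peaks, with a line for each Polycomb gene. The members lie between −0.70 (Eed) and 1.00 (Rnf2). Suz12, with 9 peaks, is outside the set of the histogram.

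Ezh2, the main catalytic subunit of PRC2 in ESCs (ENSMUSG00000029687.9, chr6:47480273-47545340, minus strand), had 7 WT peaks and 6 KO peaks, each with a partner. All of them lay at the 5′ end, between −212 and 925 bp in WT and between −122 and 1058 bp in KO. This stretch holds the intergenic promoter, the untranslated first exon and the start of an intron, with protein-coding transcripts beginning at 47545340 and 47545029. Another protein-coding transcript, Ezh2-010, begins at 47527659 and had no peak within 2 kb in either list. The peaks spanned 1238 bp in WT and 1281 bp in KO. No peak lay in the rest of the 65068 bp gene or in its flanks. Merging peaks that were at most 100 bp apart gave 2 WT and 4 KO regions, the reverse order of the peak numbers.

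Ezh1, the paralog that can take the place of Ezh2 in PRC2 (ENSMUSG00000006920.8, chr11:101052429-101087777, minus strand), had 2 peaks at its TSS in each list. The WT peaks were centred at −32 and 56 bp and the KO peaks at −80 and 74 bp, and all had partners 18 or 48 bp away. Thus the start of Ezh1 carried the narrowest pair of peak groups of the 8 genes, 189 bp in WT and 255 bp in KO. The other 5 WT and 3 KO peaks of its window belonged to starts of neighbouring genes. At Plekhh3 and Ccr10, a chemokine receptor gene, 3 WT and 3 KO peaks were partnered. One WT peak lay 142 bp from a start of Ramp2, which encodes a partner of calcitonin family receptors, and another 1105 bp from a start of Cntnap1, a gene of axon and glia contacts. Neither had a KO partner. The difference of 2 peaks in the Ezh1 window was thus made up of peaks at neighbouring genes.

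Suz12, the scaffold that holds PRC2 together (ENSMUSG00000017548.9, chr11:79806608-79847625, plus strand), had 3 WT and 6 KO peaks, all at its TSS and all partnered. The WT peaks were centred at −522, −70 and 197 bp. The KO peaks were centred at −434, −215, −136, −58, 128 and 255 bp. The outer limits were nearly the same, 820 bp in WT and 790 bp in KO, while the peaks covered 303 and 561 bp within them. The closest pair, at −70 bp in WT and −58 bp in KO, lay on the GC box stretch printed above. Merged at 100 bp, WT had 3 regions and KO 2. The 41018 bp gene body beyond the start had no peak in either list.

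Eed, the subunit that binds methylated histone H3 and stimulates the enzyme (ENSMUSG00000030619.8, chr7:97103166-97129493, minus strand), had 12 WT and 7 KO peaks, with Poisson intervals of 6.201 to 20.96 and 2.814 to 14.42. At its TSS were 6 WT peaks, from −309 to 454 bp, and 3 KO peaks, at −322, 277 and 433 bp. Both groups spanned about the same stretch, 864 and 856 bp. The WT peaks covered 539 bp of it and the KO peaks 303 bp, and only the WT peak at 26 bp lacked a partner. Besides the WT partners of the KO peaks at −322 and 277 bp, which lay at −309 and 262 bp, WT had peaks at 26, 100 and 165 bp between them.

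Each of the 3 peaks of Eed outside the promoters had a counterpart in the other list. They lay at 23558 and 5211 bp in introns and at −5826 bp upstream in WT, with KO peaks 31, 13 and 1 bp away. The WT peak at −5826 bp shared its central 31 bp with other places, 378 exact occurrences in the genome with its own included, and its KO counterpart had 424. Reads from such copies can be placed at any of them when 1 alignment per read is reported. The remaining peaks, 3 in WT and 1 in KO, were at the start of the neighbouring gene l7Rn6.

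Jarid2, an accessory subunit that binds nucleosomes and modulates PRC2 (ENSMUSG00000038518.8, chr13:44824843-45017012, plus strand), had the largest window and the most peaks, 17 in WT and 14 in KO. Within 2 kb of its own TSSs lay 6 WT and 2 KO peaks. WT peaks were centred at 814, 866, 1072, 1355, 1518 and 1762 bp from the first protein-coding start at 44824904, and KO peaks at 1067 and 1787 bp. The peaks sat on the group of starts between 44826143 and 44826656, and no peak lay within 500 bp of the starts at 44824904 and 44825164. Of the 6 WT peaks, 3 had no KO partner, at 814, 1355 and 1518 bp.

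A dense cluster followed in the first part of the gene, with 6 WT peaks over 561 bp and 7 KO peaks over 698 bp, all partnered. It was counted as distal because the nearest protein-coding TSS was 2232 to 2829 bp away. The processed transcript Jarid2-012 begins within it, at 44829409, and 6 WT and 6 KO peaks lay within 500 bp of that start. GC content there was 63.5 to 78.0% in WT and 63.5 to 78.5% in KO. The WT and KO peaks with TGACGTCA at 4429 bp coincided to the base. Thus the TSS group had 4 fewer KO than WT peaks and the cluster next to it 1 more.

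Another Jarid2 group lay in an intron at 140073, 140365 and 140502 bp in WT, with KO peaks 16, 18 and 24 bp away. Its sequence recurs: 20, 48 and 11 of the 71 overlapping 31 bp stretches of the WT peaks, and 10, 49 and 32 of those of the KO peaks, had exact copies elsewhere. Copies of the middle WT peak, printed above, were on 14 sequences of the genome build, a count that can include unplaced pieces as well as chromosomes. Whether its reads came from this locus was not tested. Unmatched peaks were 1 WT peak in a coding exon at 173585 bp, 1 WT peak in an intron of the neighbour Dtnbp1 at 210293 bp, and 2 KO peaks at −7186 and 108141 bp. The KO peak at 108141 bp lay at −3015 bp from a later protein-coding start of Jarid2, 44936060, which had no peak within 2 kb in either list.

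**Figure D4:**
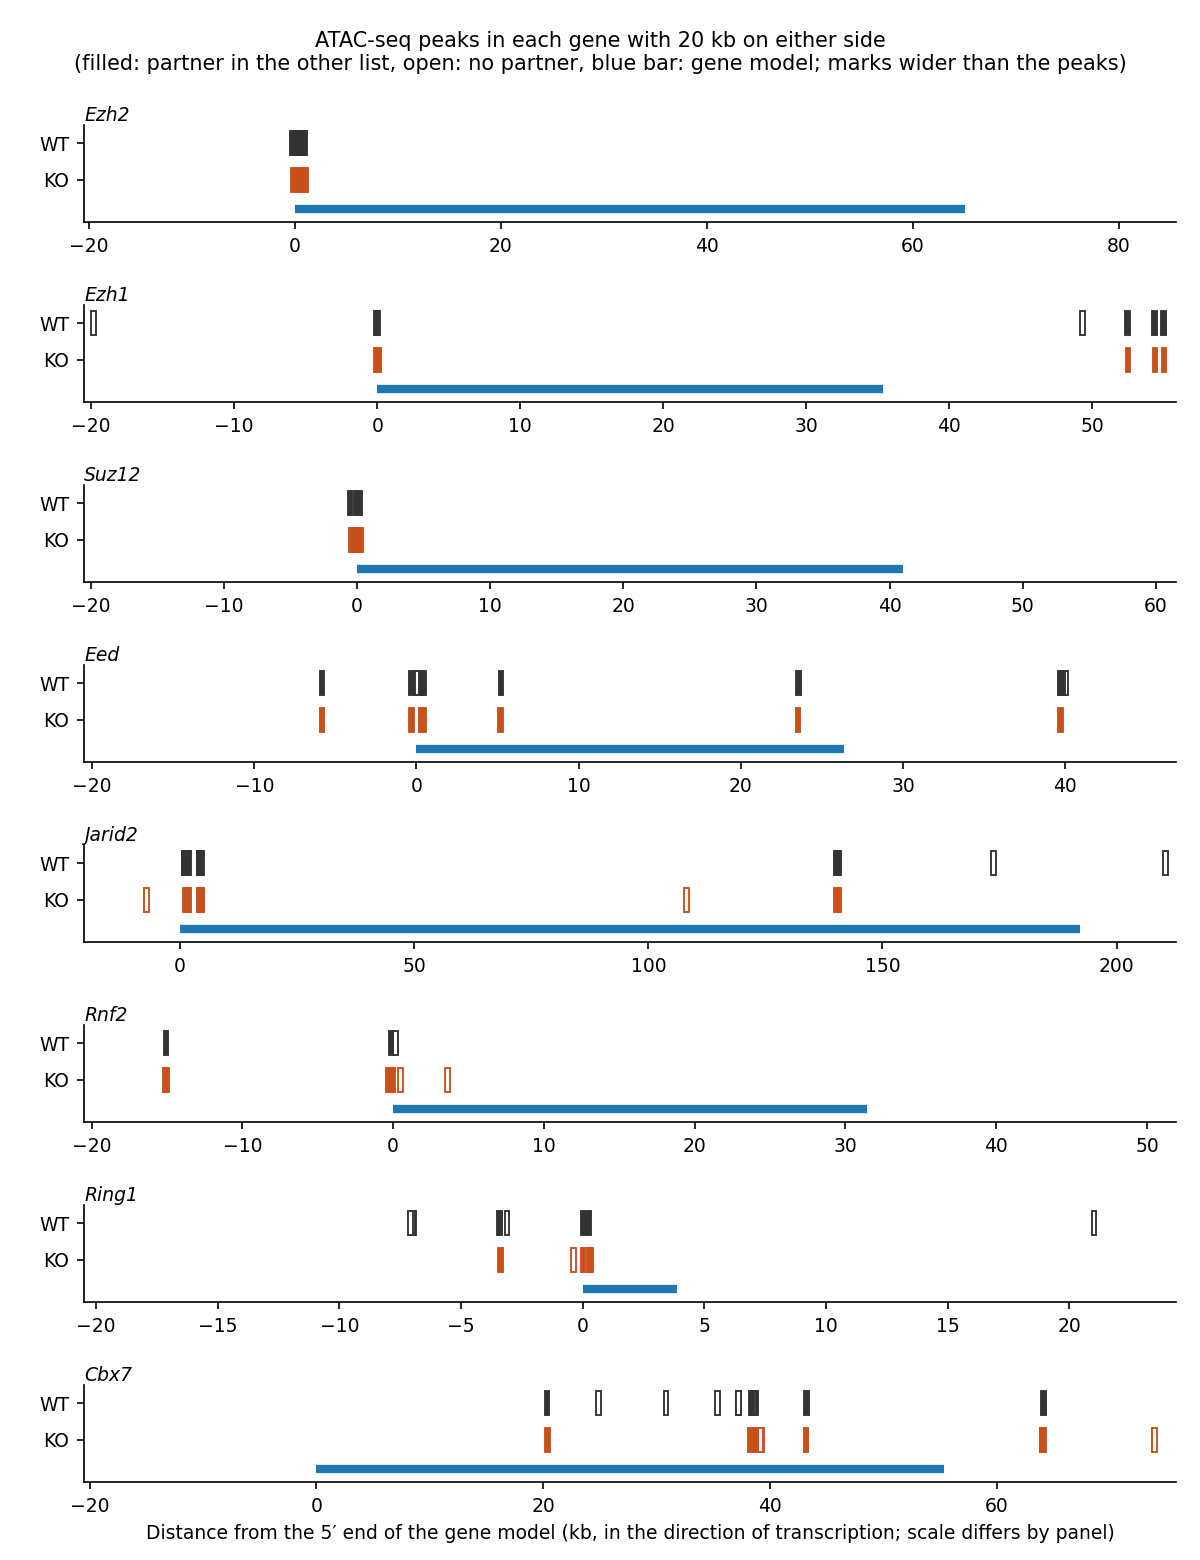
All peaks in the window of each gene, by distance in kb from the 5′ end of the gene model in the direction of transcription, with WT in the upper row and KO in the lower row. The bar is the gene model, boxes are widened to be visible, and open boxes have no partner within 100 bp. Ezh2 and Suz12 have peaks only at the start, while Jarid2 and Cbx7 have groups along the gene, and the first peak of the Cbx7 model lies at 20343 bp.

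Rnf2, the ubiquitin ligase subunit also called Ring1B (ENSMUSG00000026484.7, chr1:153316536-153347953, minus strand), had 3 WT and 7 KO peaks, with Poisson intervals of 0.6187 to 8.767 and 2.814 to 14.42. At its only annotated TSS, WT peaks were centred at −144 and 175 bp and KO peaks at −325, −154, −50 and 476 bp. The KO peaks thus reached further on both sides, over 902 bp against 420 bp. The WT peak at 175 bp and the KO peak at 476 bp had no partner. About 15 kb upstream were 1 WT peak, at −15062 bp, and 2 KO peaks, at −15046 and −15132 bp, all partnered and nearly free of CpGs. One KO peak without a partner lay in an intron at 3586 bp. Merged at 100 bp, the window had 3 WT and 4 KO regions.

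Ring1, the paralog also called Ring1A (ENSMUSG00000024325.8, chr17:34157737-34161625, minus strand), had 8 WT and 5 KO peaks in its window but 2 WT and 4 KO peaks at its own TSS. The WT peaks at the TSS were centred at 27 and 264 bp, and each had a KO counterpart, at 13 and 267 bp. KO had further peaks at 341 bp, in a coding exon, and at −376 bp, the latter with no WT partner. The lower number in the window came from the dense gene neighbourhood of the major histocompatibility complex. At the shared start of Slc39a7, a zinc transporter gene, and Rxrb, a retinoid X receptor gene, WT had 3 peaks within 226 bp and KO none within 100 bp of them. At H2-Ke6, WT had 2 peaks and KO 1. The eighth WT peak lay at 21021 bp with no partner, and 52 of its 71 stretches of 31 bp recur on 1 sequence of the genome build.

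Cbx7, a chromodomain subunit of PRC1 prominent in ESCs (ENSMUSG00000053411.9, chr15:79746237-79801549, minus strand), had 12 WT and 10 KO peaks, of which 6 and 3 had no partner. The KO minus WT difference of −2 became 2 when the WT list was shortened to the length of the KO list by name number. Its gene model begins at 79801549, and neither list had a peak within 2 kb of that start. Peaks were found instead at the internal protein-coding starts between 79762970 and 79764329. Taking the start at 79764329 as the reference, WT peaks lay at −1866, −29, 33, 1142, 1302, 1378 and 1508 bp. KO peaks lay at 1089, 1520, 1975 and 2030 bp. WT thus had 2 peaks on the reference start itself, where KO had none within 500 bp, while both lists had peaks around the starts 1 to 2 kb further into the gene. The reference start was itself chosen by peak number. Within 500 bp of the start at 79763082 lay 4 WT and 2 KO peaks. The WT group spanned 3475 bp and the KO group 1042 bp.

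Of the other Cbx7 peaks, the WT peaks at −16877 and 6015 bp, in introns, had KO partners 16 and 50 bp away. Downstream, in an intron of Apobec3, an antiviral cytidine deaminase gene, 1 WT peak at 26889 bp was matched by 3 KO peaks within 220 bp. Unmatched were the WT peaks at −6395 and −12309 bp and the KO peak at 36705 bp. Of these, the WT peak at −6395 bp and the KO peak at 36705 bp held repeated sequence, in 44 and 48 of 71 stretches of 31 bp.

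Placed by annotation, 19 of the 69 WT peaks lay in 5′ untranslated regions, 33 in introns, 13 between genes and 4 in coding exons. For KO the numbers were 9, 32, 16 and 3 of 60. No peak fell in a 3′ untranslated region. Of the distal peaks, 17 of 21 in WT (81%, exact interval 58.09 to 94.55%) and 20 of 24 in KO (83.3%, 62.62 to 95.26%) were intronic. The distal peaks at these genes were closer to their partners than the own TSS peaks, with medians of 14.5 bp (n = 16 WT peaks) and 36.5 bp (n = 26). The Jarid2 clusters gave 6 and 3 of these distal peaks. Medians by class were not computed for the whole lists.

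Own TSS peaks were rich in GC and CpG. Median GC content of the central 200 bp was 70.0% in WT (range 52.5 to 81.5%) and 68.5% in KO (55.0 to 81.0%), beside 66.5% and 65.5% for all peaks within 2 kb of a protein-coding TSS. The observed over expected CpG number had medians of 0.833 and 0.862, beside 0.787 and 0.773. Cbx7 was lowest among the 8 genes, with medians of 0.535 in WT and 0.354 in KO. Distal peaks had a median GC content of 58.5% in both lists and CpG ratios of 0.699 and 0.520, above the 0.280 and 0.236 of all peaks further than 2 kb from a TSS. The Jarid2 clusters contributed 9 of the 21 WT and 10 of the 24 KO distal peaks. Their lowest CpG ratios were 0.699 (WT) and 0.539 (KO), at or above those distal medians. Outside them, only the peaks at 173585 bp of Jarid2 (0.791) and 6015 bp of Cbx7 (0.804) reached the WT median. In KO only those at 5965 and 26894 bp of Cbx7 (0.704 and 0.537) did. The high medians thus went largely with these clusters, of which the first holds the start of Jarid2-012 and the second repeated sequence. Medians without the clusters were not computed.

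**Figure D5:**
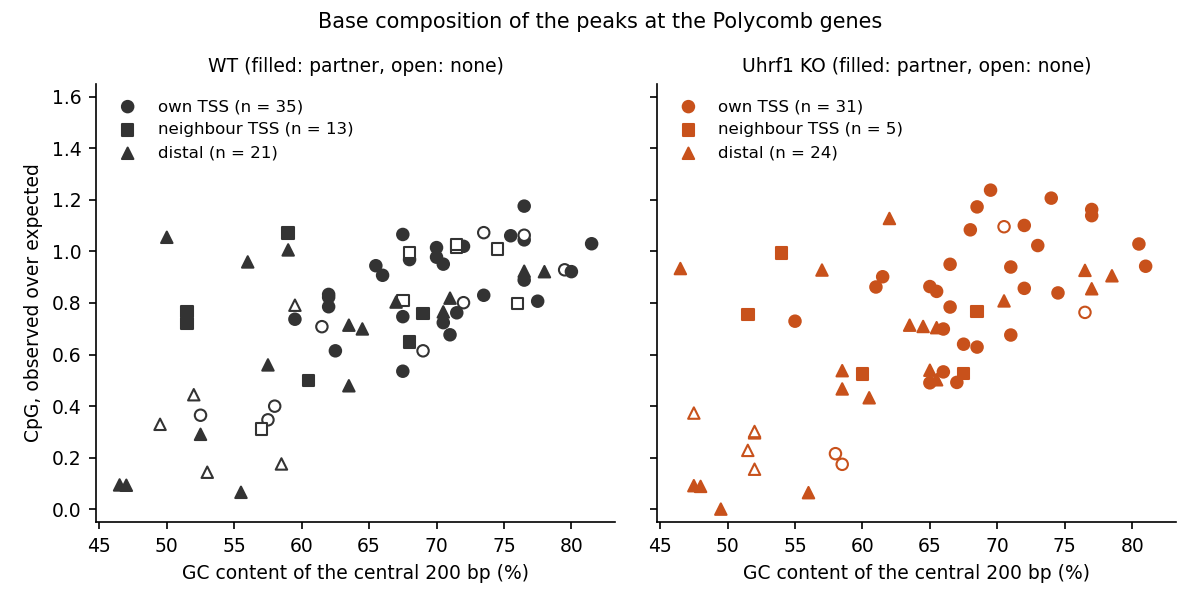
GC content of the central 200 bp of each peak (horizontal, percent) against its observed over expected CpG number (vertical), for WT (left) and KO (right), with shapes for own TSS, neighbour TSS and distal peaks. Filled symbols have a partner. The unmatched KO peaks have a median GC content of 55.0% (n = 8) and the unmatched WT peaks 67.5% (n = 21).

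Unmatched peaks differed in composition between the lists. The 21 unmatched WT peaks had a median GC content of 67.5% and a CpG ratio of 0.791, while the 8 unmatched KO peaks had 55.0% and 0.265. The same order held in the whole lists, with GC medians of 58.0% for 23049 unmatched WT peaks and 49.5% for 15174 unmatched KO peaks. The 2 sets at these genes also differed in place. Of the 21 WT peaks, 9 lay at own TSSs and 7 at neighbouring TSSs, against 4 of the 8 KO peaks at own TSSs. Member peaks with a partner had medians of 67.5% and 0.813 in WT, and 66.0% and 0.796 in KO. Whether place accounts for the difference was not tested. At these genes the KO peaks without a partner at Cbx7, Rnf2 and Jarid2 lay mostly in introns. Of those at own TSSs, the peaks at Ring1 and Rnf2 were GC-rich, at 70.5% and 76.5%. The other own TSS peaks without a partner, both at Cbx7, had 58.5% and 58.0%.

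Short motifs were searched as exact letters on both strands of each peak. GGGCGG was present in 15 of 35 own TSS peaks in WT (42.9%) and in 13 of 31 in KO (41.9%), beside 40% and 40.9% of all TSS peaks. It was found at every gene in WT, and in KO at every gene except Jarid2. AGGGGGC, part of the CTCF site, was in 1 WT and 2 KO own TSS peaks, TTTCCCGC, an E2F motif, in 1 of each, and CACGTG, the E-box, in 1 WT peak. In all TSS peaks these had shares of 7.58, 0.545 and 3.18% in WT and 7.38, 0.589 and 3.22% in KO. No own TSS peak of either list held CCGGAAG (Ets), GCGCATGC (part of the Nrf1 site), AAGATGGCG (part of the YY1 site), TGACGTCA, ATGCAAAT (the octamer), CATTGTT (Sox) or TCAAGGTCA (Esrrb). Among all TSS peaks these letters were found in 0.0511 to 5.55% in WT and in 0.0708 to 6.04% in KO.

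Other genes of the Polycomb system, 34 in number, were taken from a list. It held further PRC2 and PRC1 subunits, core ones included, and genes for removal of the marks. A TSS peak in both lists was found at 30 of them, and at 1, Bcor, a subunit of variant PRC1, in neither. Phf19, a PRC2 accessory gene, and E2f6, of variant PRC1, had 1 WT and no KO TSS peak, and Kdm6b, a demethylase of H3 lysine 27, had 1 KO and no WT TSS peak. Fewer KO than WT peaks were listed at 24 genes, equal numbers at 6 and more at 4, to be read against the 48.7% of all genes, and 64.3% of those with at least 10 peaks, that had fewer. Of the 25 with at least 10 peaks, 9 were lower by 1.5 times and 0 higher, beside 33.6% and 6.35% of all such genes. Within the list, 5 of 8 canonical PRC1 genes were lower, 1 of 4 PRC2 genes, 2 of 8 variant PRC1 genes and 1 of 5 genes of mark removal. Bmi1, a PRC1 RING partner, had 18 WT and 8 KO peaks, and Aebp2, a PRC2 accessory gene, 11 and 5. At the other end were Kdm2b, the CpG-binding subunit of a variant PRC1, with 8 and 10 peaks, and Mtf2, a PRC2 accessory gene, with 3 and 5. The 34 genes had a median log2 ratio of −0.42 and the 8 members −0.25. All 22350 protein-coding genes had a median of 0 (quartiles −0.585 and 0), and the 8035 with at least 10 peaks had −0.24.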

How the data were processed

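Peak lists of 1 WT and 1 Uhrf1 KO ATAC-seq library were used. The authors mapped reads to mm9 with Bowtie2 2.1.0, reporting 1 alignment per read, and used fragments shorter than 150 bp. The submitters' processing notes also name HOMER 4.9.1, without its role. The deposited files hold peak positions and a deposited score of 1 for every peak. How peaks were called, the threshold and any Tn5 shift are not given in the sources used here.

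Peaks were placed by their middle on GENCODE vM1, on the same build, with scipy 1.17.1, pandas 2.3.3 and numpy 2.4.6 in Python 3.11.15. Sequence came from the NCBIM37 genome, and exact 31 bp copies were counted on both strands with numba 0.67.0. The overlap routine was tested on simulated data. Figures were drawn with matplotlib 3.10.9.

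All 8 members are named. Of 34 other Polycomb genes, those lacking a TSS peak in a list and the 2 with the lowest and the 2 with the highest KO minus WT number are named, ties by gene name. The members and lists were chosen with earlier results of these data known. The count over TSS peaks, the 31 bp search along whole peaks and the choice of printed sequences were added after seeing the data. Alternatives were other flanks, merged peaks, other overlap and TSS rules and subsets by peak name number.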

Additional observations from a re-analysis of the deposited data

How the results depend on the processing

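The alternatives gave 102 values, of which 57 were classed as the same as the reported ones, 41 as moved and 4 as changed in direction. Of the 48 KO minus WT differences per gene, 12 were classed as the same, 32 as moved and 4 as changed in direction. For the other values the class was wide, and it held a KO to WT ratio of 0.622 beside the reported 0.87. No paired analysis was possible because there is 1 library of each genotype. A stricter score could not be applied, since the score is 1 for every peak. In the gene models alone, 44 WT and 36 KO peaks remained, 3 genes had fewer KO than WT peaks, and the KO minus WT difference at Ring1 became 1. Merging peaks at most 100 bp apart gave 44 WT and 38 KO regions, with differences of 2 at Ezh2 and −1 at Suz12. When the WT list was shortened to the length of the KO list by name number, the difference at Cbx7 became 2. Requiring 50% of both peaks to be shared left 50.7% of WT and 41.7% of KO peaks without a partner. Peaks in the lower 50% of name numbers came to 37 in WT and 23 in KO at these genes, where 8 genes then had a WT and 6 a KO peak at a TSS, with Ring1 and Cbx7 the exceptions. The 8 genes had a TSS peak in both lists at limits of 1 kb and 500 bp, and 7 did when the 5′ end of the gene model was the TSS, with Cbx7 the exception. The KO to WT ratio of peak numbers ranged from 0.622 to 0.968. The cause of these changes was not tested. The reads behind each peak are unknown, so a difference of a few peaks has no error beyond counting.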
